A study of Rattus norvegicus with 18 samples.

Results

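The antioxidant enzyme genes Sod2 (ENSRNOG00000019048), Cat (ENSRNOG00000008364) and Hmox1 (ENSRNOG00000014117) were followed across 18 RNA-sequencing libraries of rat islet beta cells. They are 3 of the 27654 genes in the deposited tables, and all 3 passed the filter on low counts that left 14920 genes for testing. The symbols came with these Ensembl IDs when the genes were chosen, and could not be checked, since neither the deposited tables nor the reference table at hand pairs IDs with symbols. The study set replicating against quiescent beta cells from old rats and from young rats, to ask how replicating cells differ at each age. The groups were 4 old replicative, 4 old quiescent, 5 young replicative and 5 young quiescent libraries.

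All islets, in every group, were held overnight in RPMI1640 at 11.1 mM glucose with 10% serum and given 10 micromolar EdU, a thymidine analogue taken up into new DNA. Islets of 2 rats were pooled in each of 9 batches, and every batch gave a replicating and a quiescent sample. The sources used here give neither the strain, nor the ages in weeks or months, nor the sorting gate. The labels name the cell type as pancreatic islets and the series text names beta cells. Marker genes could not be looked up without gene names, so neither name was checked against the data.

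Beta cells are known for low levels of the enzymes that remove reactive oxygen, catalase above all, compared with liver and other tissues. Sod2 encodes the manganese superoxide dismutase of the mitochondrial matrix, which turns superoxide into hydrogen peroxide, and it is a classic target of NF-kB in cells exposed to inflammatory cytokines. Cat encodes catalase, the mainly peroxisomal enzyme that splits hydrogen peroxide into water and oxygen. Hmox1 encodes haem oxygenase 1, which cleaves haem into biliverdin, carbon monoxide and iron, and is strongly induced by oxidative stress through the transcription factor Nrf2 and by loss of the repressor Bach1.

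Total counts ran from 2975086 to 8639541 in old replicative, 4639863 to 10365264 in old quiescent, 5439091 to 8242896 in young replicative and 2723660 to 14222719 in young quiescent libraries. Counts of the 3 genes ran from 201 (Cat, young replicative replicate 5) to 10874 (Hmox1, old quiescent replicate 2), so counting error was between 7.05% and 0.959% of a value and was small beside the spread between libraries. The 10 most abundant genes held 10.3% to 20.6% of counts in old replicative against 23.6% to 27.7% in old quiescent libraries, and 19.8% to 22.4% in young replicative against 25.7% to 30.1% in young quiescent libraries. This share was lower in replicative libraries at both ages, as were the mean levels of the 3 genes, and its part in their results was not tested. The biological coefficient of variation was 128% in old replicative against 29.3% in old quiescent, and 68.8% in young replicative against 35.6% in young quiescent libraries. Old replicative replicate 3 lay farthest out on the first principal component, with a score of 201 against 53.0 to 86.2 for the other old replicative libraries. It also had counts for the fewest genes, 11859. Counts were found for 11859 to 17772 genes in old replicative and 17448 to 19882 in old quiescent libraries. In young libraries the ranges were 14759 to 23683 in replicative and 19054 to 23879 in quiescent ones. The part of this in the results was not tested.

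Hmox1 had a lower mean level in replicating than in quiescent beta cells at both ages, and of the 3 genes it had the largest fold change with replicative status. Levels are given as CPM (counts scaled to a common library size, which TMM factors adjust for composition). In old islets it stood at 479, 263, 710 and 565 CPM in old replicative replicates 1 to 4, against 1151, 1211, 1469 and 1171 CPM in old quiescent replicates 1 to 4. Every old replicative library lay below every old quiescent one, an arrangement found in that direction for 11.1% of the genes tested. The means were 504 ± 187 CPM in old replicative and 1251 ± 148 CPM in old quiescent libraries (SD, n = 4 each). The log2 fold change was -1.31 (SE 0.382, 95% interval -2.10 to -0.52), a 2.48-fold lower level, and it passed (edgeR quasi-likelihood test, Benjamini-Hochberg adjusted p = 0.0254). In that comparison 6.60% of all genes tested were called lower, and 14.0% of the 3080 genes whose average log2 CPM was at least 6, a class that holds all 3 antioxidant genes. In sorted bulk samples, less RNA per cell and a smaller share of cells that hold the transcript cannot be told apart.

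The call in old islets also stood in the fit of the 8 old libraries alone, with a log2 fold change of -1.21 (edgeR adjusted p = 0.0409; 1.18% of genes were called lower there). It stood with a filter at 1 CPM (-1.22, edgeR adjusted p = 0.0481) and in limma-trend (-1.26, adjusted p = 0.0364). With the replicate number as a block it was -1.39 (edgeR adjusted p = 8.33e-05). In that block fit 1257 of 14920 genes were called lower, the median of all genes was -0.43, and old numbers are not shown to mark pairs. The call was lost under RLE scaling (log2 fold change -1.17, edgeR adjusted p = 0.0637) and in DESeq2 (-1.17, adjusted p = 0.0692). It was also lost without the low-count filter (-1.32, edgeR adjusted p = 0.0918) and in limma-voom with sample quality weights (-1.56, adjusted p = 0.197). RLE scaling moved the median of all genes in this comparison to 0.14, against 0.01 under TMM. Leaving out old quiescent replicate 3 or old replicative replicate 2 also ended the call (edgeR adjusted p = 0.0592 and 0.0682). Without old replicative replicate 3, the library that lay apart, the fold change was -1.55 (edgeR adjusted p = 0.0168).

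In young islets Hmox1 stood at 770, 277, 291, 313 and 319 CPM in young replicative replicates 1 to 5, against 1744, 492, 510, 644 and 647 CPM in young quiescent replicates 1 to 5. The libraries numbered 1 were the highest of their groups in both states, and because of young replicative replicate 1 the groups overlapped. The means were 394 ± 211 CPM in young replicative and 807 ± 529 CPM in young quiescent libraries (SD, n = 5 each). The log2 fold change was -1.04 (SE 0.340, 95% interval -1.74 to -0.33) and did not pass the test (edgeR adjusted p = 0.158), where 0.214% of genes were called lower.

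Same-numbered young libraries deviated from their group means together, so they were also compared as pairs. Hmox1 was lower in the replicative library of all 5 young pairs, by 1.18, 0.83, 0.80, 1.04 and 1.02 on the log2(CPM + 1) scale in pairs 1 to 5. The mean difference was -0.97 ± 0.16 (SD, n = 5 pairs), although the levels themselves had SDs of 0.61 in young replicative and 0.75 in young quiescent libraries on the same scale. With the pair as a block the log2 fold change was -0.98 (SE 0.156) and passed the edgeR test (adjusted p = 0.00109, with 0.556% of genes called lower). That fit held the libraries of both ages and blocked the old numbers too, so its SE and p rest partly on them. An exact permutation of signs over the 5 pairs gave p = 0.0625, the smallest that 5 pairs allow. A lower level in all 5 young pairs was found for 11.3% of the genes tested and for 20.9% of those with an average log2 CPM of at least 6. Single libraries moved the unpaired result: without young replicative replicate 1 the log2 fold change was -1.45 and was called (edgeR adjusted p = 0.0145), and without young quiescent replicate 1 it was -0.53 (edgeR adjusted p = 0.621). Without both libraries numbered 1, a choice made after seeing the data, the unpaired fold change was -0.92 and passed the edgeR test too (adjusted p = 0.0343, with 0.128% of genes called lower).

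**Figure D1:**
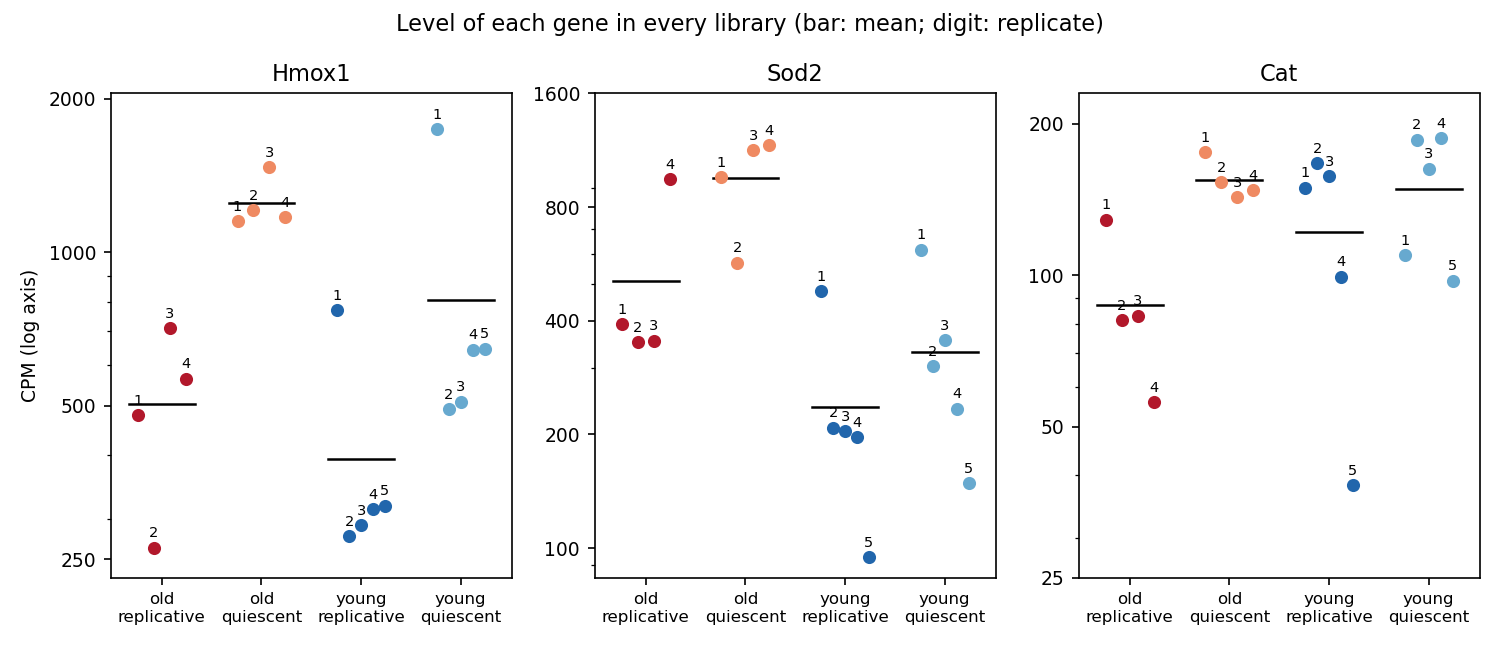
Level of Hmox1, Sod2 and Cat in each of the 18 libraries, in CPM on a log axis, by group, with the replicate number beside each point and a bar at the group mean. Hmox1 in old replicative libraries (263 to 710 CPM) lies wholly below old quiescent libraries (1151 to 1469 CPM), and the young libraries numbered 1 stand above the rest of their groups in Hmox1 and Sod2.

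Averaged over both ages, a comparison added after the data had been seen, Hmox1 was 2.25-fold lower in replicative than in quiescent cells. The log2 fold change was -1.17 (SE 0.256, 95% interval -1.70 to -0.64; edgeR adjusted p = 0.00319), and 6.39% of genes were called lower. It kept the call in all 26 alternatives tried, single libraries left out included, with adjusted p-values up to 0.0466. The replication effect on Hmox1 was not shown to depend on age. The interaction, the effect in old minus that in young cells, was -0.28 on the log2 scale (95% interval -1.32 to 0.77; edgeR adjusted p = 0.915). In that test 0.0268% of genes were called. The interaction changed sign, to 0.13, without young replicative replicate 1.

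Between ages, Hmox1 averaged 504 CPM in old replicative and 394 CPM in young replicative libraries, a log2 difference of 0.36 (SE 0.356, 95% interval -0.38 to 1.09; edgeR adjusted p = 0.608). It averaged 1251 CPM in old quiescent and 807 CPM in young quiescent libraries, a log2 difference of 0.63 (SE 0.355, 95% interval -0.10 to 1.37; edgeR adjusted p = 1.00). Neither passed the test, where 7.16% of genes were called in replicative and 0.0268% in quiescent cells. Young quiescent replicate 1, at 1744 CPM, was above all 4 old quiescent libraries, and the other young quiescent libraries were below all 4. Without both young libraries numbered 1 the log2 differences were 0.75 in replicative and 1.12 in quiescent cells (edgeR adjusted p = 0.0555 and 0.0698). In limma-voom with sample quality weights the quiescent difference was 1.09 and was called (adjusted p = 0.00879), where 5.92% of genes were called higher in old.

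Sod2 stood higher in old than in young islets in both states, but the difference did not pass in the edgeR model of 4 group means, which has no replicate block, when every library was kept. In replicative cells it stood at 391, 351, 355 and 948 CPM in old replicates 1 to 4, against 480, 208, 204, 197 and 94.6 CPM in young replicates 1 to 5. The means were 511 ± 292 CPM in old replicative (SD, n = 4) and 237 ± 144 CPM in young replicative ones (SD, n = 5). The log2 difference was 1.11 (SE 0.405, 95% interval 0.27 to 1.95; edgeR adjusted p = 0.0960). In quiescent cells it stood at 959, 569, 1131 and 1169 CPM in old replicates 1 to 4, against 618, 303, 355, 234 and 149 CPM in young replicates 1 to 5. The means were 957 ± 274 CPM in old quiescent (SD, n = 4) and 332 ± 178 CPM in young quiescent ones (SD, n = 5). The log2 difference was 1.53 (SE 0.407, 95% interval 0.69 to 2.37; edgeR adjusted p = 0.282). In fits of the compared groups alone it was 1.47 in quiescent and 1.10 in replicative cells (edgeR adjusted p = 0.0744 and 0.311). With the replicate block the quiescent difference was 1.65, also without a call (limma adjusted p = 0.0776). The replicative difference in that block fit was 1.16 and was just called (limma adjusted p = 0.0499). There 503 of 14920 genes were called higher in old replicative cells, and the old numbers are not shown to mark pairs.

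In each state the overlap came from the young library numbered 1, which lay above the lowest old library. Without both of these libraries the Sod2 groups did not overlap in either state. They were left out after the data had been seen, and leaving out the overlapping libraries ensured this result. Such an order, old above young, was then found for 2.96% of genes tested in replicative and 4.32% in quiescent cells. Those genes did not guide the choice of libraries, so these shares are not a fair background for Sod2. Without both, the log2 difference was 1.54 in replicative cells (edgeR adjusted p = 0.0166; 2.72% of genes called higher in old) and 1.88 in quiescent cells (edgeR adjusted p = 0.0487; 0.0638% called higher). These p-values rest on the same choice. In that edgeR model the Sod2 call thus depended on these libraries, and it also depended on the model. Without old replicative replicate 4 the replicative difference was 0.60 (edgeR adjusted p = 0.360). In limma-voom with sample quality weights the quiescent difference was 1.63 and passed with all libraries kept (adjusted p = 0.00295), where 5.92% of genes were called higher in old.

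With replicative status, Sod2 had lower mean levels in replicative cells at both ages and did not pass in either in the model without a block. In old islets the values above gave a log2 fold change of -0.90 (SE 0.431, 95% interval -1.80 to -0.01; edgeR adjusted p = 0.175). Old replicative replicate 4, at 948 CPM, lay among the old quiescent libraries, while the other old replicative libraries lay below all of them. Without it the fold change was -1.43 and was called (edgeR adjusted p = 0.0300). With every library kept and the replicate number as a block, the old fold change was -0.99 and was called (edgeR adjusted p = 0.00355). In that fit 1257 of 14920 genes were called lower, and old numbers are not shown to mark pairs. In young islets the log2 fold change was -0.49 (SE 0.384, 95% interval -1.28 to 0.31; edgeR adjusted p = 0.938). It was -0.12 without young quiescent replicate 1 and -0.93 without young replicative replicate 1, and was called in neither case (edgeR adjusted p = 0.978 and 0.417).

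Sod2 was lower in the replicative library of all 5 young pairs, by 0.36, 0.54, 0.79, 0.25 and 0.65 on the log2(CPM + 1) scale, a mean of -0.52 ± 0.22 (SD, n = 5 pairs). The levels ran from 94.6 to 480 CPM in young replicative and from 149 to 618 CPM in young quiescent libraries, with pair 1 highest and pair 5 lowest in both. With the pair as a block the fold change was -0.52 (SE 0.172) and still did not pass the test over all genes (edgeR adjusted p = 0.187). As for Hmox1, that fit blocked the old numbers too. The mean over both ages was -0.70 (SE 0.289, 95% interval -1.29 to -0.10; edgeR adjusted p = 0.112). In this model without a block it was called only when old replicative replicate 4 (-0.97) or young replicative replicate 1 (-0.92) was left out, of the 18 libraries left out in turn. The interaction was -0.42 (95% interval -1.61 to 0.77; edgeR adjusted p = 0.879). Without young replicative replicate 1 the interaction changed sign, to 0.02.

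**Figure D2:**
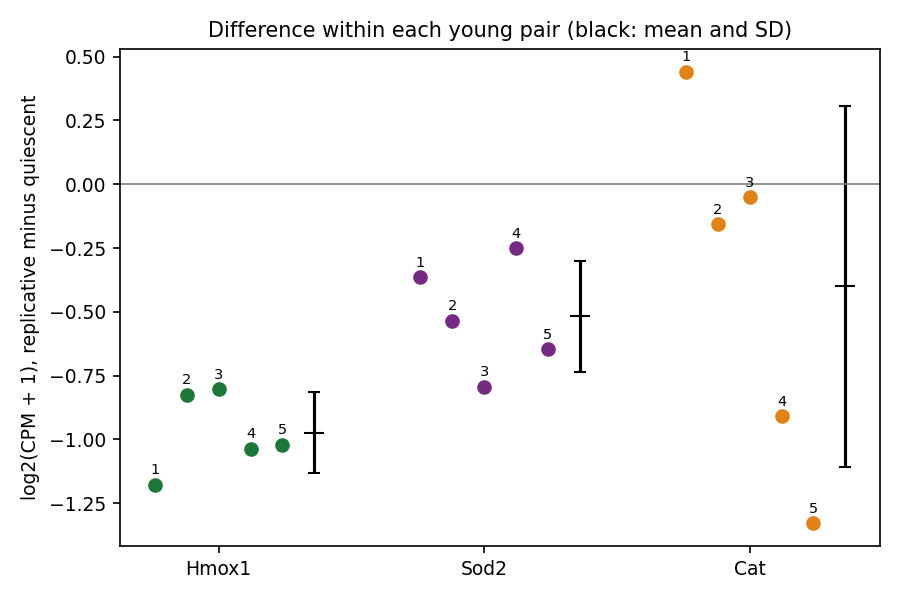
Difference within each pair of same-numbered young libraries, replicative minus quiescent, on the log2(CPM + 1) scale, with the pair number beside each point and the mean and SD over 5 pairs in black. Hmox1 lies between -1.18 and -0.80 and Sod2 between -0.79 and -0.25 in every pair, while Cat runs from -1.33 to 0.44.

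Cat had a lower mean level in old replicative than in old quiescent cells, without a call in the model without a block. In young cells its differences within pairs were the widest of the 3 genes. It stood at 129, 81.3, 83.1 and 55.9 CPM in old replicative replicates 1 to 4, against 176, 153, 143 and 148 CPM in old quiescent replicates 1 to 4. As for Hmox1, every old replicative library lay below every old quiescent one, which held in that direction for 11.1% of genes tested. The means were 87.3 ± 30.4 CPM in old replicative and 155 ± 14.5 CPM in old quiescent libraries (SD, n = 4 each). The log2 fold change of -0.83 (SE 0.347, 95% interval -1.54 to -0.11) did not pass the test (edgeR adjusted p = 0.119). Without old replicative replicate 1, the highest of its group, it was -1.10 and was called (edgeR adjusted p = 0.0465). With every library kept and the replicate number as a block, it was -0.88 and was called (edgeR adjusted p = 0.0428). In that fit 1257 of 14920 genes were called lower, and old numbers are not shown to mark pairs.

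In young islets Cat stood at 149, 167, 157, 99.3 and 38.3 CPM in young replicative replicates 1 to 5, against 110, 186, 163, 187 and 97.6 CPM in young quiescent replicates 1 to 5. The groups overlapped, and young replicative replicate 5 was the lowest of all 18 libraries. The means were 122 ± 53.7 CPM in young replicative and 149 ± 42.5 CPM in young quiescent ones (SD, n = 5 each). The log2 fold change was -0.28 (SE 0.308, 95% interval -0.92 to 0.36; edgeR adjusted p = 1.00). Without young replicative replicate 5 it was -0.06, also without a call (edgeR adjusted p = 1.00). By pair, Cat was higher in the replicative library in pair 1, by 0.44 on the log2(CPM + 1) scale, and lower in pairs 2 to 5, by 0.16, 0.05, 0.91 and 1.33. Unlike the other 2 genes, its differences within pairs (SD 0.71) were as wide as its levels (SD 0.88 in young replicative and 0.44 in young quiescent libraries). Young replicative replicates 4 and 5, of the pairs with the largest differences, had counts for 15462 and 14759 genes. Young replicative replicates 1 to 3 had counts for 21315 to 23683 genes. The part of this in the Cat differences was not tested.

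Cat did not pass the test between ages. The log2 difference was -0.48 in replicative cells (SE 0.330, 95% interval -1.17 to 0.20; edgeR adjusted p = 0.416) and 0.06 in quiescent cells (SE 0.326, 95% interval -0.62 to 0.74; edgeR adjusted p = 1.00). The sign in quiescent cells turned with the scaling, to -0.01 under RLE factors. Quiescent levels ran from 143 to 176 CPM in old and from 97.6 to 187 CPM in young libraries, and the old values lay within the young range. The mean over both ages of the replication effect was -0.55 (SE 0.232, 95% interval -1.03 to -0.07; edgeR adjusted p = 0.116). In this model without a block it was called only when old replicative replicate 1 was left out (-0.70), of the 18 libraries left out in turn. The interaction was -0.54 (95% interval -1.50 to 0.41; edgeR adjusted p = 0.774).

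**Figure D3:**
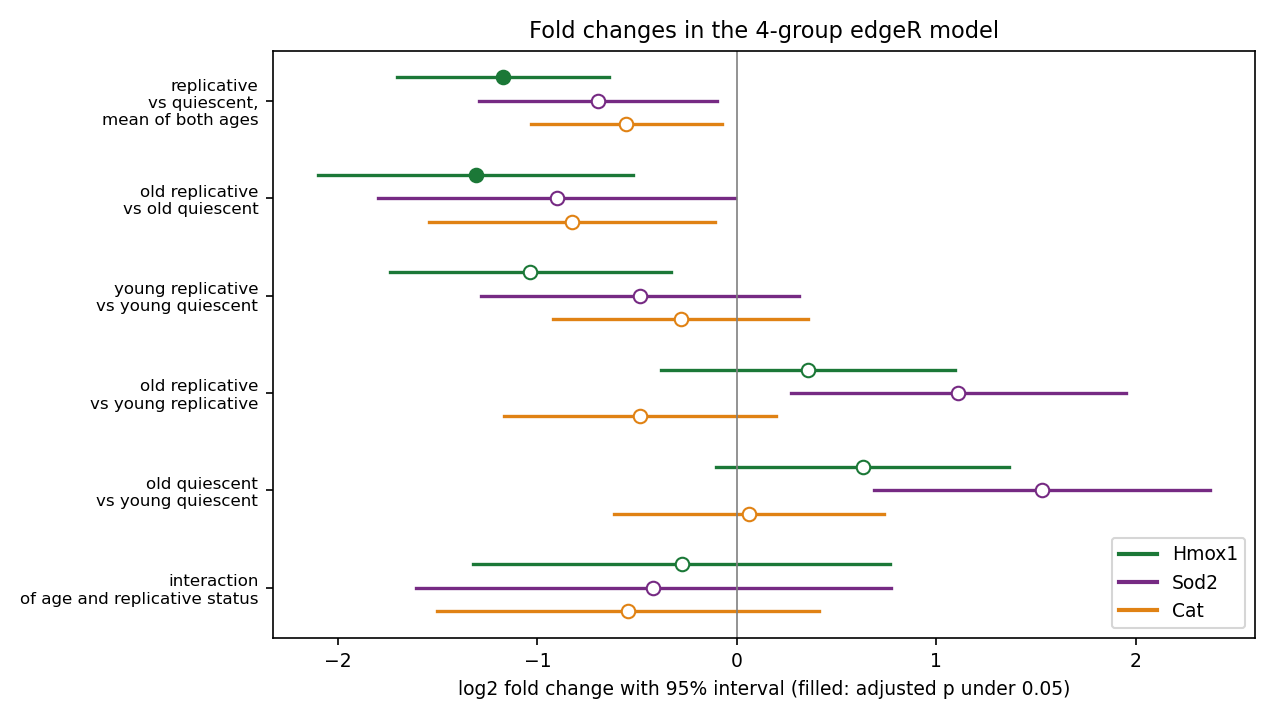
Log2 fold changes of Hmox1, Sod2 and Cat with 95% intervals in the edgeR model of all 4 groups, for each comparison and, in the top row, the replication effect averaged over both ages. Filled points passed an adjusted p of 0.05, which holds for Hmox1 in old islets (-1.31) and over both ages (-1.17).

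By group means the 3 genes ran in different orders. Hmox1 was highest in old quiescent libraries at 1251 CPM, then young quiescent at 807, old replicative at 504 and young replicative at 394 CPM, so quiescent groups came first whatever the age. Sod2 was highest in old quiescent at 957 CPM, then old replicative at 511, young quiescent at 332 and young replicative at 237 CPM, so old groups came first whatever the state. Cat ran from 155 CPM in old quiescent through 149 in young quiescent and 122 in young replicative to 87.3 CPM in old replicative libraries. In the edgeR model without a block and with every library kept, none of the steps tested between neighbours in these orders passed the threshold. The steps tested were both steps between ages for Hmox1, both steps between states for Sod2 and all 3 steps for Cat. Some of the Hmox1 and Sod2 steps passed in other fits or with a library left out, as given above. The middle step of Hmox1 and of Sod2, between old replicative and young quiescent cells, was not tested.

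Exact permutation tests on log2(CPM + 1), which assume no model of the spread, were run for each gene by itself. They moved libraries freely between groups and so ignored the young pairs. For old replicative against old quiescent libraries the two-sided exact p was 0.0286 for Hmox1 and for Cat, the smallest that 4 against 4 libraries allow, and 0.0571 for Sod2. For young replicative against young quiescent libraries the exact permutation p was 0.0397 for Hmox1, 0.325 for Sod2 and 0.437 for Cat. For old against young quiescent libraries it was 0.0317 for Sod2, 0.0794 for Hmox1 and 0.635 for Cat. For old against young replicative libraries it was 0.0635 for Sod2, 0.365 for Hmox1 and 0.460 for Cat. None of these 12 tests passed after Benjamini-Hochberg adjustment over the 12, and the smallest adjusted p was 0.119. The smallest exact permutation p is 0.0159 for 4 against 5 libraries and 0.00794 for 5 against 5. No test could thus pass this adjustment by itself, so the lack of a call decides nothing.

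All 3 genes varied more between young libraries than most abundant genes did. The SD of Sod2 on the log2(CPM + 1) scale was 0.83 in young replicative and 0.76 in young quiescent libraries, above that of 96.2% and 97.7% of the 3080 genes whose average log2 CPM was at least 6. Hmox1 had SDs of 0.61 in young replicative and 0.75 in young quiescent libraries, above 89.2% and 97.5% of those genes. Cat had SDs of 0.88 in young replicative and 0.44 in young quiescent libraries, above 96.9% and 82.2% of those genes. Without the libraries numbered 1 the spread of Hmox1 shrank to an SD of 0.09 in young replicative and 0.21 in young quiescent libraries, above 3.15% and 46.0% of those genes. These libraries were the highest of their groups for Hmox1 and were left out after seeing the data, so a smaller spread followed from that choice. Sod2 stayed variable without them, with SDs of 0.55 in both states. In old quiescent libraries Hmox1 (SD 0.16) and Cat (SD 0.13) varied less than the median of those genes (SD 0.20), and Sod2 (SD 0.48) more than 90.9% of them.

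Over the 18 libraries the levels of Sod2 and Hmox1 were more alike than either was with Cat. Pearson's r of log2(CPM + 1) was 0.72 between Sod2 and Hmox1 (Spearman's rho 0.70), 0.27 between Sod2 and Cat and 0.28 between Hmox1 and Cat. These are descriptions with no p, since libraries share batches and groups. Among 11556 genes with an average log2 CPM of at least 2, Hmox1 ranked 49 by likeness to Sod2, and Cat ranked 2326. The gene most like Sod2 was ENSRNOG00000017163 (r = 0.93), the gene most like Cat was ENSRNOG00000011383 (r = 0.89), and the gene most like Hmox1 was ENSRNOG00000020848 (r = 0.89). The files do not pair these IDs with names.

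**Figure D4:**
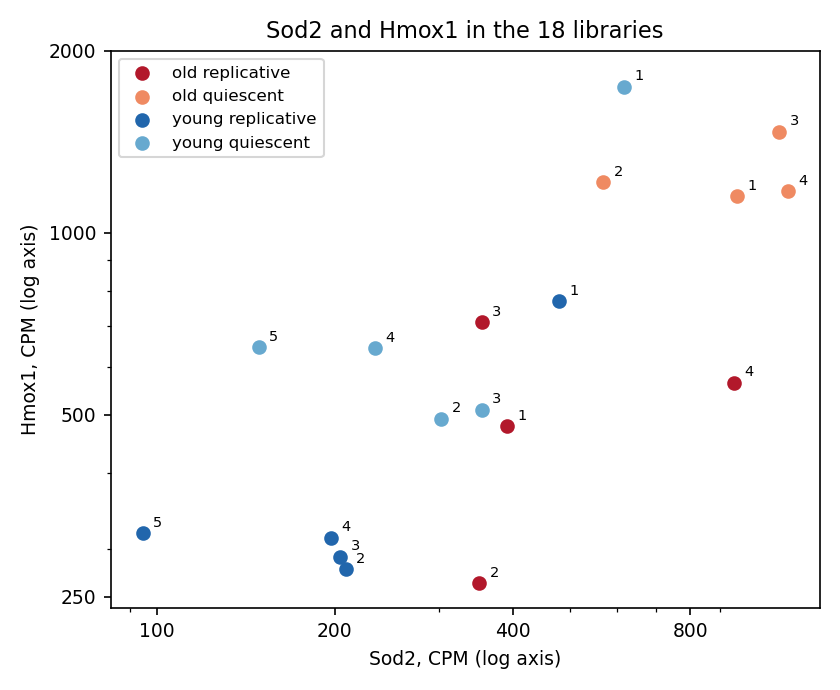
Sod2 (x axis) against Hmox1 (y axis) in CPM on log axes in the 18 libraries, coloured by group, with the replicate number beside each point. Young replicative and young quiescent libraries numbered 1 lie up and to the right of the rest of their groups, and old quiescent libraries lie together at 569 to 1169 CPM of Sod2 and 1151 to 1469 CPM of Hmox1.

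Sequence upstream of the gene start was at hand for Sod2 and Cat, from RefSeq's build GRCr8, which is not the build of the deposited files, and is shown because the genes followed different patterns. Capitals mark matches on either strand to the core of the antioxidant response element that Nrf2 binds (TGACNNNGC), to the GC box (GGGCGG) and to the CCAAT box (CCAAT). Each stretch is 250 bases, read 5′ to 3′ on the minus strand and ending next to the gene start, at chr1:50050169-50050418 for Sod2 and chr3:110329527-110329776 for Cat.
Sod2: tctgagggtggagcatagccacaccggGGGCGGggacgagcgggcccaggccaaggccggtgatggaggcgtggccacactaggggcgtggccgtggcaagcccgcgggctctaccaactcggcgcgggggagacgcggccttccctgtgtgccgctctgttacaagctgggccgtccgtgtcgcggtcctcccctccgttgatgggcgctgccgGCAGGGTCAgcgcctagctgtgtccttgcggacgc
Cat: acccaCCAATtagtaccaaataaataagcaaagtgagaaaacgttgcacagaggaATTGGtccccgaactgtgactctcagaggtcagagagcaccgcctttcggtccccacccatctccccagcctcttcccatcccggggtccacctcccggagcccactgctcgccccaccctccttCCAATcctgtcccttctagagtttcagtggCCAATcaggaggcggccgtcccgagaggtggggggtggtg

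The Sod2 stretch is 71.6% G and C and the Cat stretch 58.8%, where the median of all 33469 upstream stretches is 51.2%. Sod2 has 1 match to the antioxidant response element core, found in 10.1% of all stretches, and 1 to the GC box, found in 30.5%. Cat has 4 matches to the CCAAT box, a motif found in 34.0% of all stretches, and none to the other motifs marked. Neither stretch has a match to GGGNNTTCC, a simplified NF-kB motif found in 5.09% of stretches. A match is a run of letters and not a shown binding site.

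In the GRCr8 annotation no other gene overlaps Sod2, whereas a pseudogene overlaps Cat and a long non-coding RNA gene overlaps Hmox1. The sources used here do not give the annotation or strand setting behind the counts, so how reads of overlapping genes were assigned is unknown.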

How the data were processed

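RNA of sorted rat islet cells was extracted with a kit for fixed tissue and sequenced from a stranded total RNA library, per the labels' protocols. The authors deposited raw counts per Ensembl gene ID and log2 values. The submitters' processing notes list STAR, DESeq2 and build rn6, without saying what each was used for. Each deposited log2 value equals the log2 of the count over a median-of-ratios size factor, plus 1 (largest difference 5.2e-14). Columns were matched to samples by the labels' descriptions.

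Counts were fitted in R 4.3.3 with edgeR 4.0.16: filterByExpr by group (minimum count 10, minimum total 15), TMM factors, 4 group means over 18 libraries, robust dispersions and quasi-likelihood F tests. P-values were adjusted (Benjamini-Hochberg) over 14920 genes, threshold 0.05. The standard error is the fold change over the square root of F. Exact permutation tests were two-sided (scipy 1.17.1). Scripts were tested on simulated data. P-values of this model measure the spread between libraries of a group, each from a batch of pooled rats. The model takes the libraries of a batch as independent. Only the fits with the replicate block and the sign permutation over pairs use same-numbered libraries together.

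Alternatives were RLE scaling, other filters, DESeq2 1.42.0, limma 3.58.1 (voom with quality weights, and trend on the log2 values), 2-group fits, blocking on the replicate number (a fixed term within an age, a random one between ages, statmod 1.5.0), and each library left out. The average over both ages and the fits without both young libraries numbered 1 were added after the data had been seen.

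Deviations from group means of same-numbered libraries correlated at 0.14 to 0.50 in the 5 young pairs, which were taken as pairs, since the series text says that each islet batch gave a sample of both states while the labels do not tie numbers to batches. The rule required every pair to be over 0.1, and 1 of 4 old pairs was at 0.0996, so old libraries were not. That pair missed the cut narrowly, so fits blocked on the old numbers are given as alternatives. The edgeR fit with the block held all libraries and blocked old and young numbers alike. Its young results thus share a spread estimate with the blocked old libraries.

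The genes and lists were chosen with earlier results of these data known. The named genes are the 3 members and, per member, the gene most like it by Pearson's r among genes with an average log2 CPM of at least 2. The 11 gene lists and 10 marker lists were not run because no ID could be matched to a name, so no antioxidant pathway or cell type list is reported.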

Additional observations from a re-analysis of the deposited data

Results flagged for a closer look

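A set of 3 values stood apart from the rest of their group by Dixon's test on log2(CPM + 1). Sod2 in old replicative replicate 4 was 948 CPM, where the nearest of the other old replicative libraries was 391 CPM. Hmox1 in young replicative replicate 1 was 770 CPM, where the nearest of the others was 319 CPM. Hmox1 in young quiescent replicate 1 was 1744 CPM, where the nearest of the others was 647 CPM. Both Hmox1 values come from libraries with the same replicate number. The highest and the lowest library were looked at in 12 groups, and chance flags about 1 in 20 groups.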

How the results depend on the processing

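Averaged over both ages, Hmox1 kept its direction and its call in all 26 alternatives, with log2 fold changes from -1.39 to -0.92. In old islets Hmox1 kept its call in 10 of 16 alternatives and lost it under RLE scaling (-1.17), without the low-count filter (-1.32), in DESeq2 (-1.17), in limma-voom with sample quality weights (-1.56) and without old quiescent replicate 3 or old replicative replicate 2. Leaving out each library gave -1.55 to -1.13 for Hmox1, -1.43 to -0.78 for Sod2 and -1.10 to -0.71 for Cat in old replicative against old quiescent cells, and -1.45 to -0.53 for Hmox1, -0.93 to -0.12 for Sod2 and -0.41 to -0.06 for Cat in young replicative against young quiescent cells. It gave 0.60 to 1.52 for Sod2 in old against young replicative cells, -0.06 to 0.15 for Cat in old against young quiescent cells, -0.92 to 0.0220 for Sod2 and -0.77 to 0.13 for Hmox1 in the interaction, and -0.97 to -0.51 for Sod2 and -0.70 to -0.44 for Cat averaged over both ages. Cat in old against young quiescent cells was near 0 and changed sign under RLE scaling (-0.00635), in DESeq2 (-0.00656), in limma-voom (-0.0163), without old quiescent replicate 1 (-0.00225), young quiescent replicate 1 (-0.0334) or young quiescent replicate 5 (-0.0637), and without both young libraries numbered 1 (-0.0356). With the replicate block, calls were gained by old Sod2 (-0.99, edgeR adjusted p = 0.00355) and old Cat (-0.88, edgeR adjusted p = 0.0428), with both genes lower in all 4 same-numbered old pairs. They were also gained by young Hmox1 (-0.98), by Sod2 in old against young replicative cells (1.16, limma adjusted p = 0.0499), and by Sod2 (-0.76, edgeR adjusted p = 0.000906) and Cat (-0.64, edgeR adjusted p = 0.0285) averaged over both ages. The old numbers are not shown to mark pairs. All 8 old and 9 of 10 young libraries correlated best with the library of their own number, which is a hint from the data and not the design. The replicate block changed no other call of the 3 genes. Without both young libraries numbered 1, calls were gained by young Hmox1 (-0.92) and by Sod2 in old against young replicative (1.54) and quiescent cells (1.88). In limma-voom, Sod2 (1.63) and Hmox1 (1.09) were called in old against young quiescent cells. In old islets the median of all genes was -0.33 in limma-voom, -0.35 in limma-trend and -0.43 with the replicate block, against 0.01 in the edgeR model of 4 groups. For genes with an average log2 CPM of at least 6, the median in the edgeR model of 4 groups was -0.24.

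Counts of called genes depended more on the method. In old replicative against old quiescent cells there were 2053, against 3365 in DESeq2, 1021 in limma-voom, 540 in the fit of 2 groups and 1134 to 2916 with a library left out. In young replicative against young quiescent cells there were 368, against 603 in DESeq2, 2935 in limma-voom and 786 in the fit of 2 groups. In old against young replicative cells there were 1069, against 2578 in DESeq2, 190 in limma-voom, 62 in the fit of 2 groups, 1719 with the replicate block and 644 to 2211 with a library left out. In old against young quiescent cells there were 4, against 8 without the filter, 59 in DESeq2, 1571 in limma-voom, 258 in the fit of 2 groups, 11 without both young libraries numbered 1 and 0 to 13 with a library left out. For the interaction there were 4, against 1 without the filter, 15 with a filter at 1 CPM, 383 in DESeq2, 2 in limma-voom, 1 in limma-trend, 11 with the replicate block, 1 without both young libraries numbered 1 and 0 to 231 with a library left out. The cause of these shifts was not tested. Library depth limits the 3 genes little, since each had at least 201 counts in every library.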
